A study of Homo sapiens with 6 samples.

Results

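Transcripts of the collagen chains were read in NCI-H292 cells, an established line from a human mucoepidermoid lung carcinoma, with and without added CT45A1. Members were all probe sets whose single annotated gene symbol was COL, a number, A and a number, and they numbered 112 of the 54675 probe sets on the array, for 43 of 19775 genes with a probe set of their own. Of these, 40 probe sets of 19 genes were bright enough to test, with 3 or more of the 6 arrays reading above their own median.

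The CT45A1 overexpression cells stably carried a fusion of CT45A1 with Venus, a fluorescent protein, and the CT45A1 negative cells carried the Venus vector alone. CT45A1 belongs to the cancer/testis antigens, whose expression in healthy tissue is largely limited to testis. Each group had 3 replicates with 1 array each, of total RNA from cells grown in serum-containing medium. Whether replicates came from separate cultures or clones is not stated in the labels, so the p-values cover array-to-array spread alone, part or all of which could be technical. RNA came from whole cultures, so fewer cells making a transcript and less transcript per cell cannot be told apart.

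Collagens are secreted or membrane proteins in which alpha chains wind around each other into a triple helix, either copies of one chain or a set of different ones. Fibrillar collagens such as types I, III and V build the tensile fibres of connective tissue and are made chiefly by fibroblasts. Epithelial cells are known instead for the type IV network of the basement membrane and for type VII, whose anchoring fibrils fasten that membrane to the tissue beneath. Chains are hydroxylated and folded in the endoplasmic reticulum, trimmed after secretion and cross-linked.

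All values are MAS5 signals on a linear intensity scale, and each difference is the mean log2 signal of overexpression cells minus that of negative cells. Each median array signal lay between 79.2 and 83.3 in overexpression cells and between 72.6 and 75.6 in negative cells. CT45 probe sets, annotated to 9 CT45 genes each, read 154 to 700.1 in overexpression and 1.95 to 36.3 in negative cells. The ratio of 3' to 5' actin signal, a sign of RNA integrity and labelling length, was 1.42, 1.49 and 1.55 on overexpression replicates 1, 2 and 3, against 1.70, 1.64 and 1.91 on negative replicates 1, 2 and 3, so it did not overlap between the groups. Summed marker signals take in every probe set of a list, tested or too dim to test. Of 8 epithelial markers, 7 had a probe set and all 7 were tested, with 1 lower (KRT18, difference -0.25, limma adjusted p = 0.0393). The epithelial list summed to 74210.1 to 75452 in overexpression and 75765 to 82554 in negative cells. Of 10 fibroblast and stromal markers, 4 were tested and none passed. The whole list summed to 4097 to 4927 in overexpression and 3952 to 4269 in negative cells. Those tested included FAP, at 1062 to 1638 in overexpression and 846 to 1398 in negative cells, and TWIST2, at 714 to 813 in overexpression and 811 to 1039 in negative cells. The other tested ones were FBLN1 and ACTA2. At its brightest probe set FBLN1 read 372 to 476 in overexpression and 283 to 404 in negative cells, a difference of 0.27. Its other tested probe sets differed by 0.03 to 0.52, and all overlapped. ACTA2 read 379.8 to 441 in overexpression and 383 to 509 in negative cells. PDGFRA, PDGFRB, THY1, LUM, DCN and POSTN were each too dim to test. Of 5 endothelial and 5 leukocyte markers 2 and 1 were tested and none passed. The whole lists summed to 692 to 736 and 265 to 389 in overexpression cells, against 465 to 622 and 229 to 320 in negative cells. Tested endothelial markers were CDH5, at 170 to 240 in overexpression and 87.0 to 147 in negative cells, and PECAM1. The CDH5 groups did not overlap (difference 0.79, limma adjusted p = 0.112). PECAM1 differed by 0.32 at its brightest probe set and by 0.41 and 0.47 at its other tested ones, with overlap. The leukocyte marker CD14 differed by 0.46, also with overlap. The part of these markers in the collagen results was not tested.

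COL1A1 and COL27A1 rose with CT45A1, COL8A1 fell, and COL4A6 gave 1 probe set in each direction. These 5 probe sets of 4 genes passed in limma at an adjusted p under 0.05, out of 40 collagen probe sets tested (12.5%), where 3.23% of all 27618 tested probe sets passed. By direction, 3 collagen probe sets rose, against a background of 1.89%, and 2 fell, against 1.34%. The remaining 35 did not pass. An unadjusted p under 0.05 was reached by 12 of the 40 (30.0%) and by 20.7% of all tested probe sets. The 2 groups of 3 arrays did not overlap for 14 of the 40 (35.0%), 11 with the overexpression arrays on top and 3 with them below, where 26.6% of all tested probe sets were separated, 15.2% upward and 11.4% downward. Differences lay above 0 for 33 and below 0 for 7 of the 40, where 55.5% of all tested probe sets lay above 0. The median collagen difference was 0.33, against 0.03 for all tested probe sets, and 1 collagen probe set entered the test only through its overexpression arrays. Centring each array on its median moved the median of all tested probe sets to -0.11. It lowered every difference by the same amount, those of the collagens included, with COL1A1 1556499_s_at going from 1.49 to 1.34.

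**Figure D1:**
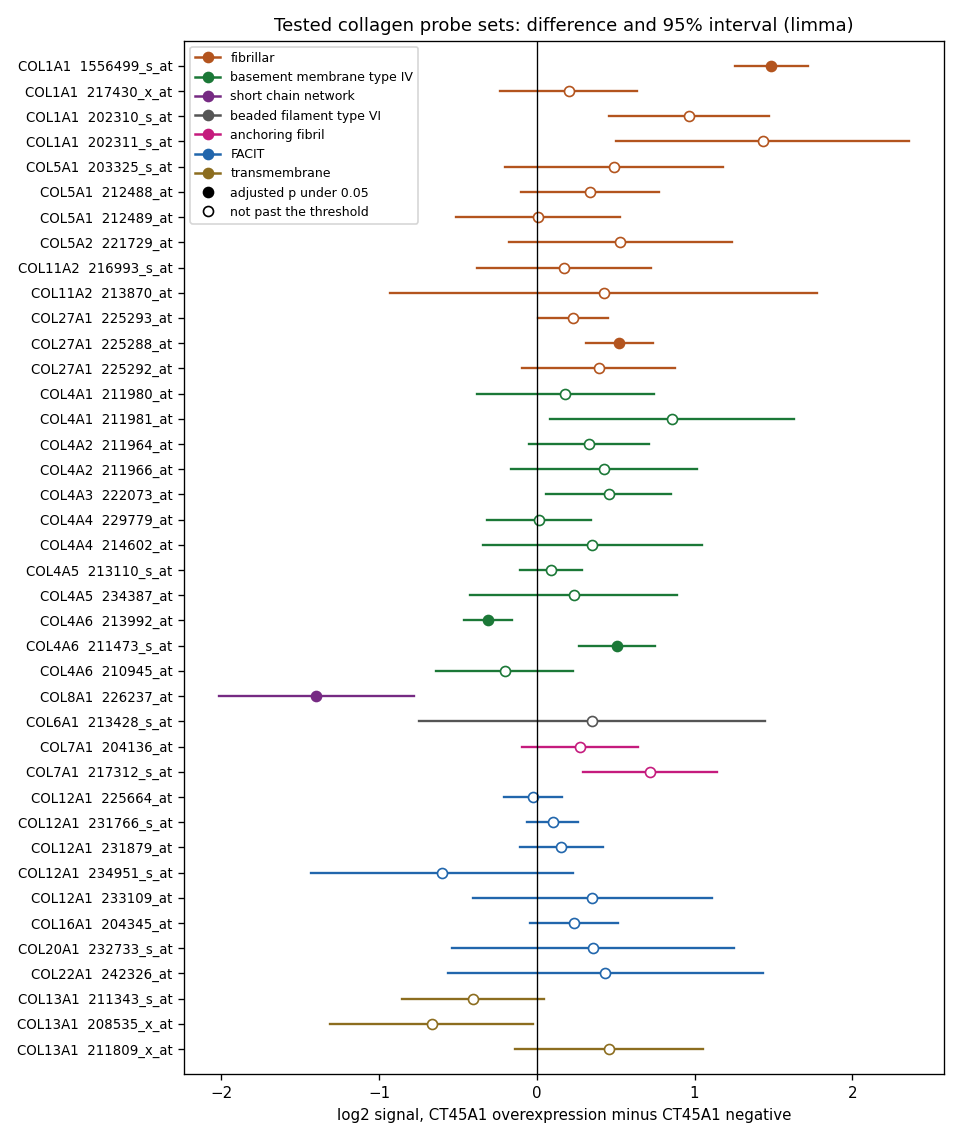
Differences in log2 signal, CT45A1 overexpression minus CT45A1 negative, for the 40 tested collagen probe sets, with 95% limma intervals as bars, ordered and coloured by collagen class. Filled points mark the 5 probe sets past the threshold, at COL1A1 (1.49), COL27A1 (0.52), COL4A6 (0.51 and -0.31) and COL8A1 (-1.40).

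Among fibrillar chains, COL1A1, the alpha 1 chain of type I collagen, had the largest difference upward of the 40. Its probe set 1556499_s_at read 3157, 3449.8 and 2625 in overexpression cells, against 1027, 1166 and 1085 in negative cells. Every overexpression array was more than double every negative one, at a fold of 2.80 between group means. The log2 difference was 1.49 (SE 0.11, limma adjusted p = 0.000394, n = 3 per group).

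The other COL1A1 probe sets did not pass. Probe set 202310_s_at read 177, 149 and 172 in overexpression cells, against 93.2, 83.3 and 78.4 in negative cells, a difference of 0.97 (SE 0.23, limma adjusted p = 0.0503). Probe set 202311_s_at read 99.9, 141 and 110.4 in overexpression cells, against 72.5, 29.2 and 37.2 in negative cells. In 202310_s_at the overexpression arrays lay above all negative ones. The 202311_s_at probe set was tested only because its 3 overexpression arrays lay above their medians, while its negative arrays lay below theirs, so its separation followed partly from the filter, and its fold was at least 1.57. Probe set 217430_x_at, whose suffix marks probes that can match other transcripts, read 201, 318 and 295 in overexpression cells, against 242, 251 and 204 in negative cells, which overlapped. The dimmest, 202312_s_at, was below the array median on every array and read 25.5, 16.2 and 37.2 in overexpression cells, against 41.7, 31.7 and 58.6 in negative cells, a difference of -0.78 that was not tested. Leaving out any 1 array kept the call of 1556499_s_at, while without the variance trend its adjusted p was 0.0567. Every COL1A1 probe set, the called one included, has an _s_at or _x_at suffix. None of them was tested where such probe sets were dropped. The called probe set read far above the other COL1A1 probe sets in both groups, and the reason was not tested.

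COL1A2, whose alpha 2 chain joins COL1A1 chains in the common form of type I collagen, was too dim to test. Its 3 probe sets lay below the array median on all 6 arrays, with signals of 1.83 to 74.99. COL3A1, the chain of the type III homotrimer that accompanies type I in connective tissue, was likewise below the median at all 5 probe sets, at 0.61 to 46.2. One COL3A1 probe set, 201852_x_at, read 1.61, 5.16 and 3.70 in overexpression cells, against 46.2, 22.2 and 16.5 in negative cells. These groups did not overlap, but all 6 values were dim, so no fold is given, and without a filter the limma adjusted p was 0.161. The suffix of 201852_x_at marks probes that can match other transcripts. The other COL3A1 probe sets overlapped between the groups and differed by 0.38, 0.59, 0.88 and -1.56.

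COL27A1, a fibrillar chain best known from cartilage, rose at 1 of its 3 tested probe sets. Probe set 225288_at read 846, 969 and 857 in overexpression cells, against 615, 610.0 and 631 in negative cells, with the groups well apart. The difference was 0.52, a fold of 1.44 (SE 0.10, limma adjusted p = 0.0215). The brighter 225293_at read 1716, 1765 and 1602 in overexpression cells, against 1249, 1561 and 1539 in negative cells, a smaller difference of 0.23 (SE 0.10, adjusted p = 0.224). Probe set 225292_at read 232, 374 and 291 in overexpression cells, against 186, 206 and 291 in negative cells, and differed by 0.39 (SE 0.22, adjusted p = 0.337). The 2 other COL27A1 probe sets were too dim to test and differed in opposite directions, by -0.55 and 1.14. The call of 225288_at was lost with the actin ratio as a covariate, at an adjusted p of 0.121, and when any 1 array other than negative replicate 3 was left out.

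**Figure D2:**
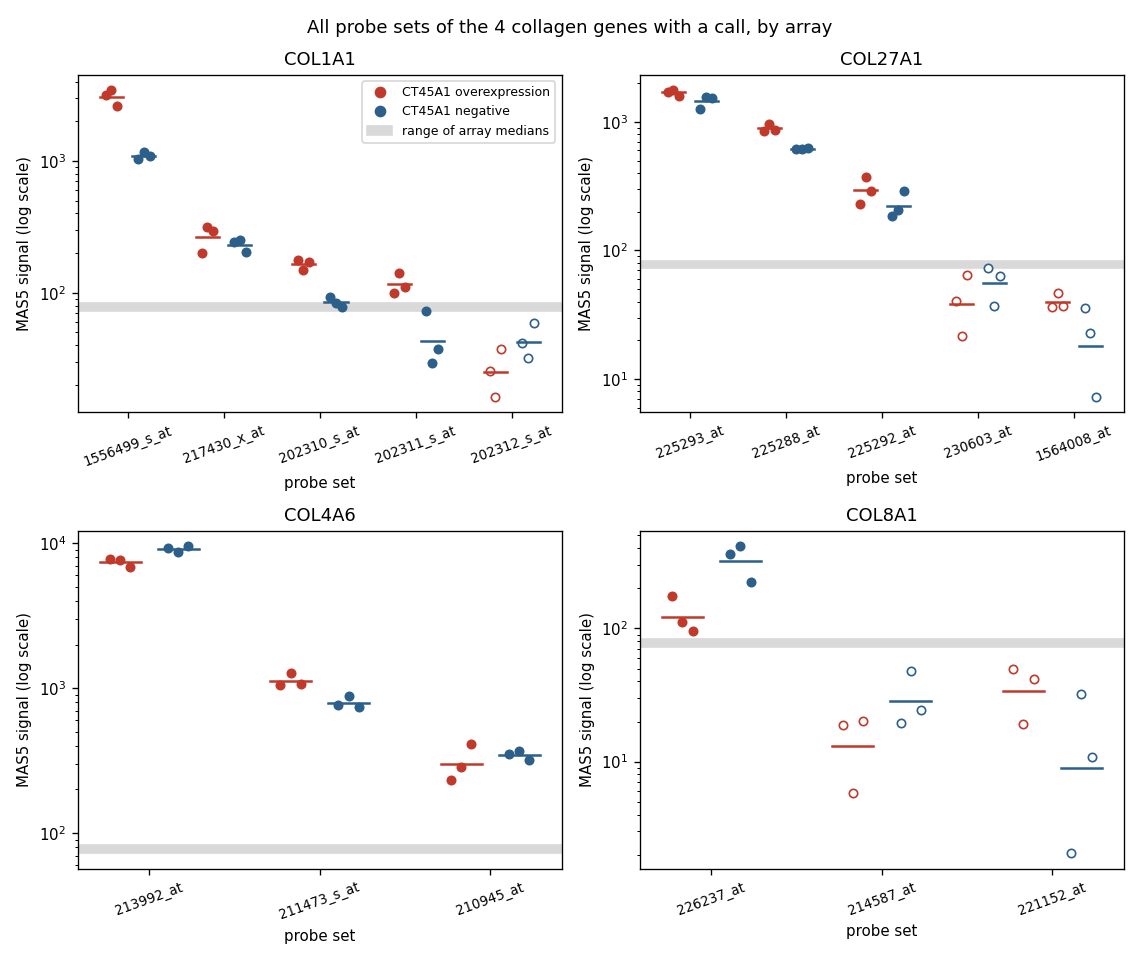
MAS5 signals on a log axis for every probe set of COL1A1, COL27A1, COL4A6 and COL8A1, with the 3 CT45A1 overexpression arrays in red left of the 3 CT45A1 negative arrays in blue. Horizontal bars are geometric means, open points were too dim to test, and the grey band is the range of array medians (72.6 to 83.3). COL1A1 1556499_s_at reads 2625 to 3449.8 in overexpression and 1027 to 1166 in negative cells.

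The type V chains, which join type I in mixed fibrils and set their diameter, did not pass. COL5A1 probe set 203325_s_at read 1837, 1473 and 826 in overexpression cells, against 966, 1374 and 606 in negative cells. The groups overlapped, and the difference of 0.49 had a 95% interval of -0.20 to 1.18 (limma adjusted p = 0.399). The other COL5A1 probe sets differed by 0.34 and 0.01. COL5A2 was separated between the groups at both of its probe sets, at levels near or below the array median. Its 221729_at read 119, 99.9 and 76.9 in overexpression cells, against 62.7, 73.6 and 65.8 in negative cells (difference 0.53, SE 0.32, adjusted p = 0.371). Its 221730_at read 74.0, 75.9 and 79.3 in overexpression cells, against 14.2, 31.0 and 31.5 in negative cells, and was too dim to test. COL11A2, a chain of cartilage type XI, differed by 0.17 at its brightest probe set (SE 0.25, adjusted p = 0.740). All 13 tested fibrillar probe sets had differences above 0 as deposited, where 55.5% of all tested probe sets did. Of the 13, 2 passed, where 1.89% of all tested probe sets passed upward. The 13 include COL1A1 202311_s_at, tested only through its overexpression arrays. The sign was not stable for COL5A1, where 212489_at kept it in 9 of 16 alternative settings. With the actin ratio as a covariate, every COL5A1 probe set lay below 0, while COL1A1 1556499_s_at and COL27A1 225288_at stayed above 0. COL2A1, COL5A3, COL11A1 and COL24A1 had no tested probe set, with signals from 0.63 to 89.7.

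All 6 type IV genes were tested, the only class besides the single type VII gene for which every gene was. Type IV chains form several kinds of trimer, and their genes sit in head-to-head pairs, COL4A1 with COL4A2, COL4A3 with COL4A4 and COL4A5 with COL4A6. RefSeq promoter windows on GRCh38.p14, from 250 bases before to 50 after each start, showed this arrangement, with starts 127, 419 and 380 bases apart and 226, 82 and 121 bases shared between the windows of the pairs. COL4A6 had a second listed start, 1416 bases from that of COL4A5. Windows are shown 5′ to 3′ on each gene's own strand. They are those of the pair whose brightest probe sets varied together between arrays and of the pair with calls. Capitals mark the CCAAT box (CCAAT or ATTGG) and the GC box (GGGCGG or CCGCCC), searched on both strands, with no overlap between matches of the 2 motifs.
COL4A1, minus strand, chr13:110307108-110307407: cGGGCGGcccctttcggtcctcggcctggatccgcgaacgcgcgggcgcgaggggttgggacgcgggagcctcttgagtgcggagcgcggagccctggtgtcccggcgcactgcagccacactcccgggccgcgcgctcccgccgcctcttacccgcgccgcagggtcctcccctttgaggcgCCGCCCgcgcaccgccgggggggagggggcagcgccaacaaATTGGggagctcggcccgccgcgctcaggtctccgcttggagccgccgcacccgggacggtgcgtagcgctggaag
COL4A2, plus strand, chr13:110307034-110307333: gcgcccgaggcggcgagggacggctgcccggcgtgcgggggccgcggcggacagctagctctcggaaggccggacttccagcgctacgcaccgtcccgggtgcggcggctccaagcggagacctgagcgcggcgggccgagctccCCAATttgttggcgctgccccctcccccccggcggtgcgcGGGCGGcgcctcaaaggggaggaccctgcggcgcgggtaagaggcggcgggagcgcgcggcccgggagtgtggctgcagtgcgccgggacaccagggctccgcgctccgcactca
COL4A5, plus strand, chrX:108439588-108439887: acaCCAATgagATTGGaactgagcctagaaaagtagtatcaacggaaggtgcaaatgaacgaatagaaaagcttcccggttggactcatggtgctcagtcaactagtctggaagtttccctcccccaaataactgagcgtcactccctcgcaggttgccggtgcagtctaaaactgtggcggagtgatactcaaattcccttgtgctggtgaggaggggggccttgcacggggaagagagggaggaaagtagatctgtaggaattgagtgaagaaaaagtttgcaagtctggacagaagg
COL4A6, minus strand, start nearest COL4A5, chrX:108439409-108439708: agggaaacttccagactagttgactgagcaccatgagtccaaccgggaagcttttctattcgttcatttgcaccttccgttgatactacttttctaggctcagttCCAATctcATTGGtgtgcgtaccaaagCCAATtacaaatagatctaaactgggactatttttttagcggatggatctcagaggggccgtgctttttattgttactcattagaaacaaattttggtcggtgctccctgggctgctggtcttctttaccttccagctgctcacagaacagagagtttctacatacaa
COL4A6, minus strand, second start, chrX:108438373-108438672: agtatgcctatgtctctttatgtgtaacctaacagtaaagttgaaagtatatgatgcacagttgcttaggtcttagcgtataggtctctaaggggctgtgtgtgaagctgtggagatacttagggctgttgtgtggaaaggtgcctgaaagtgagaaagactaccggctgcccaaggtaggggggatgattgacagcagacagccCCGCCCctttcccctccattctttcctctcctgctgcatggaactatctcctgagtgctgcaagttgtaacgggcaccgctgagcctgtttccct
The COL4A1 and COL4A2 windows hold 1 CCAAT box and 1 GC box in common, read from opposite strands, and COL4A1 has 1 further GC box. The COL4A5 window has 2 CCAAT boxes and no GC box, and the COL4A6 window nearest to it holds the same 2, 1 further CCAAT box and no GC box, while the second COL4A6 window has 1 GC box and no CCAAT box. Of all 35116 windows in the RefSeq table, 34.6% held a CCAAT box and 45.0% a GC box. Of the 43 windows of the 31 collagen genes in that table, 30.2% held a CCAAT box and 55.8% a GC box. These matches are letters in a window, not shown to be bound.

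COL4A6, an alpha 6 chain that joins alpha 5 in some epithelial basement membranes, changed in opposite directions at its 2 brighter probe sets. Probe set 213992_at read 7774, 7669.9 and 6824 in overexpression cells, against 9342, 8711 and 9509 in negative cells, so all overexpression arrays were lower. It fell by 0.31 on the log2 scale (SE 0.07, limma adjusted p = 0.0425). Probe set 211473_s_at read 1053, 1273 and 1065 in overexpression cells, against 764, 877 and 743 in negative cells, so all overexpression arrays were higher. It rose by 0.51 (SE 0.11, limma adjusted p = 0.0373). Within an array, the log2 ratio of 211473_s_at to 213992_at was -2.88, -2.59 and -2.68 in overexpression cells, against -3.61, -3.31 and -3.68 in negative cells. The third probe set, 210945_at, read 232, 286 and 412 in overexpression cells, against 352, 370.3 and 319.8 in negative cells, with overlap and a difference of -0.20 (SE 0.20, adjusted p = 0.594). Which COL4A6 transcripts each probe set matches was not tested. Both calls were lost with the actin ratio as a covariate, at adjusted p of 0.226 for 213992_at and 0.359 for 211473_s_at. The fall of 213992_at also did not pass after quantile normalization (adjusted p = 0.0666), cyclic loess (0.0913) or without a filter (0.0802), nor the rise of 211473_s_at after array median centring (0.0687) or without a filter (0.0559). The 213992_at call was lost with each of the 6 arrays left out and the 211473_s_at call with each of them except negative replicate 2.

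COL4A5, the partner of COL4A6, showed little difference. Its 213110_s_at read 9006, 8654 and 7668 in overexpression cells, against 8298, 8504 and 6979 in negative cells, and the difference of 0.09 had a 95% interval of -0.10 to 0.29. COL4A3 and COL4A4, known from kidney and lung basement membranes, did not pass either. COL4A3 probe set 222073_at read 334, 355 and 249 in overexpression cells, against 252, 234 and 194 in negative cells, which overlapped only narrowly (difference 0.46, SE 0.18, adjusted p = 0.186). Its 6 other probe sets were too dim to test. COL4A4 differed by 0.01 at 229779_at, with an interval of -0.32 to 0.34, and by 0.35 at 214602_at.

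COL4A1 and COL4A2, the chains of the network found in almost all basement membranes, did not pass. Their brightest probe sets varied together from array to array. COL4A1 probe set 211980_at read 4199.9, 3368 and 2118 on overexpression replicates 1, 2 and 3, against 2949, 3607 and 1933 on the negative ones. COL4A2 probe set 211964_at read 3920.4, 2899.9 and 2381 in overexpression cells, against 2396, 2845 and 2002 in negative cells. At both of these probe sets replicate 3 was the lowest of its group in both groups, replicate 1 was the highest overexpression array, and replicate 2 the highest negative one. The differences were 0.18 (interval -0.38 to 0.74, limma adjusted p = 0.728) and 0.33 (interval -0.05 to 0.71, adjusted p = 0.303). The dimmer COL4A1 probe set, 211981_at, read 1174, 962 and 563 in overexpression cells, against 649, 640.0 and 258 in negative cells, and differed by 0.86 (SE 0.35, adjusted p = 0.201). The dimmer COL4A2 probe set, 211966_at, read 364, 211 and 213 in overexpression cells, against 153, 265 and 168 in negative cells. Its order over arrays was different. It differed between the groups by 0.42 (SE 0.27, limma adjusted p = 0.394). The order of the brightest probe sets was not particular to this pair. FN1, THBS1, PXDN and LAMB3 also had it at their brightest probe sets.

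COL7A1, the only chain of anchoring fibrils, had the same order over arrays at 204136_at. That probe set read 4817, 4574 and 3289.7 in overexpression cells, against 3113, 4423 and 2977 in negative cells, with overlap (difference 0.27, SE 0.17, limma adjusted p = 0.377). Its 217312_s_at read 2679, 2507 and 1628 in overexpression cells, against 1705, 1286 and 1125 in negative cells, where only overexpression replicate 3 reached into the negative range. That difference was 0.72 (SE 0.19, adjusted p = 0.0729). With 1 array left out, it passed only without overexpression replicate 3, at 0.94 (adjusted p = 0.0250), and with no other array left out. Replicate 3 was the lowest of its group in both groups for 12 of the 40 collagen probe sets (30.0%), where 15.3% of all tested probe sets had that order. These 12 include every tested probe set of COL5A1, COL7A1 and COL4A1, and also COL8A1 226237_at, which passed. That COL8A1 probe set also had replicate 1 as the highest overexpression array and replicate 2 as the highest negative one.

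The actin 3'/5' ratio moved with this order, and replicate 3 had the highest ratio of its group in both groups. With the ratio added to the fit, 8 of the 9 differences of COL4A1, COL4A2, COL5A1 and COL7A1 were below 0, whereas all 9 were above 0 without it. COL4A1 was then -0.97 at 211980_at (SE 0.20, limma adjusted p = 0.0335) and -0.78 at 211981_at (adjusted p = 0.116). COL7A1 217312_s_at was 0.12 (adjusted p = 0.864). The ratio did not overlap between the groups, so ratio and CT45A1 status are only partly separable in 6 arrays. With the same covariate COL1A1 1556499_s_at differed by 1.33 (adjusted p = 0.00742) and COL8A1 226237_at by -2.51 (adjusted p = 0.00642).

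**Figure D3:**
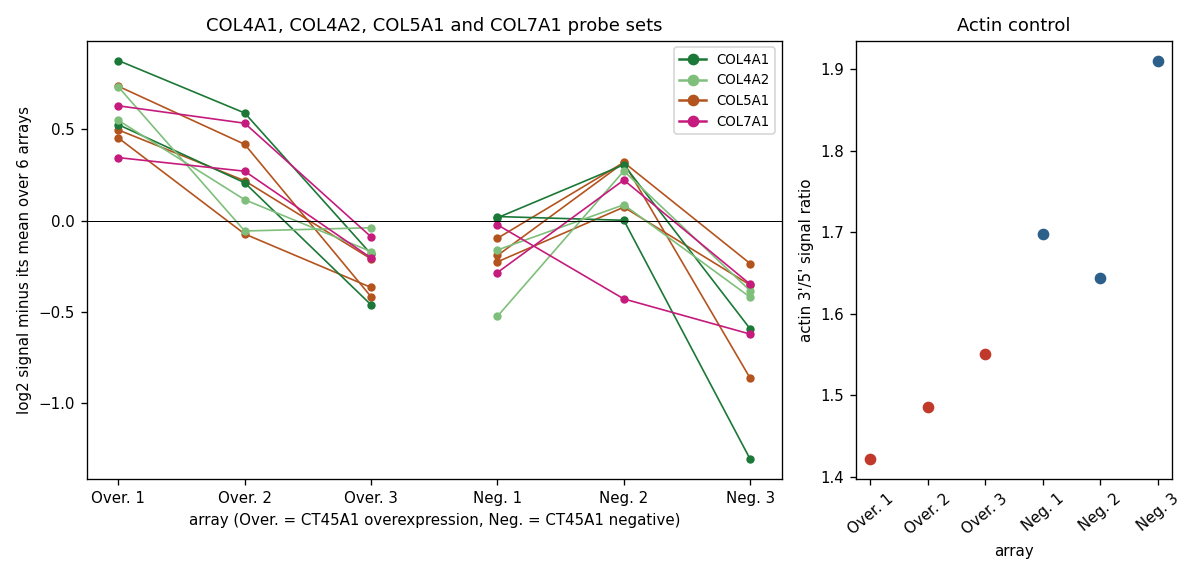
Left, log2 signal of each tested COL4A1, COL4A2, COL5A1 and COL7A1 probe set minus its mean over the 6 arrays, with lines joining the arrays of a group for 1 probe set. Right, the actin 3'/5' signal ratio, 1.42 to 1.55 on the CT45A1 overexpression arrays and 1.64 to 1.91 on the CT45A1 negative arrays. Negative replicate 3 has the highest ratio and most of the lowest collagen signals.

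COL8A1, a short-chain network-forming collagen known from vessel walls and the eye, fell with CT45A1. Its 226237_at read 174, 111 and 95.6 in overexpression cells, against 364, 413 and 225 in negative cells. The groups did not overlap, and the negative group was 2.64 times the overexpression group. The difference was larger in size than that of COL1A1 after array median centring (-1.54 against 1.34 for COL1A1) and with the actin ratio in the fit, and by a small margin after quantile normalization and cyclic loess. As deposited it was -1.40 (SE 0.28, limma adjusted p = 0.0290, n = 3 per group). The other COL8A1 probe sets were too dim to test and disagreed in direction, 214587_at at -1.12 and 221152_at at 1.92. The COL8A1 call was lost without overexpression replicate 2 or 3, or negative replicate 1 or 2, with adjusted p of 0.112, 0.0757, 0.106 and 0.0886, and without the variance trend, at 0.117. Of its class, COL8A2, the second type VIII chain, and COL10A1, a marker of growth plate cartilage, had no tested probe set, at signals of 10.1 to 131 and 0.99 to 70.0.

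The chains that attach to fibril surfaces showed no change that passed in limma, with 8 probe sets of COL12A1, COL16A1, COL20A1 and COL22A1 tested and none with an unadjusted p under 0.05. COL12A1, a fibril-associated chain made by many mesenchymal and some tumour cells, read 3017, 2698 and 2463 in overexpression cells, against 2686, 2774 and 2836 in negative cells at 225664_at. The groups overlapped, and the interval of the difference was -0.21 to 0.16. Its 231766_s_at differed by 0.10 (interval -0.06 to 0.26) and its 231879_at by 0.16. At both, the overexpression arrays lay above all negative ones. Its dimmer 234951_s_at and 233109_at differed by -0.60 and 0.35, with overlap. COL16A1 read 385, 409 and 407 in overexpression cells, against 311, 382 and 330.1 in negative cells, separated but not past the threshold (difference 0.24, SE 0.13, adjusted p = 0.318). COL20A1 and COL22A1 differed by 0.36 and 0.43, with intervals of -0.54 to 1.25 and -0.57 to 1.43.

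COL13A1, a transmembrane collagen of cell adhesion sites, gave differences of both signs and none passed. Its 211343_s_at read 225, 145 and 223 in overexpression cells, against 254, 286 and 232 in negative cells, all lower with CT45A1 (difference -0.40, SE 0.20, limma adjusted p = 0.288). Its 211809_x_at read 129.96, 97.1 and 117 in overexpression cells, against 91.0, 79.7 and 78.9 in negative cells, all higher with CT45A1 (difference 0.46, SE 0.27, adjusted p = 0.363). Its 208535_x_at differed by -0.67 (SE 0.29, adjusted p = 0.226), and both of the _x_at probe sets can match other transcripts. COL6A1, a chain of the beaded filaments around cells, had 1 tested probe set of 8, which read 88.3, 71.0 and 56.8 in overexpression cells, against 83.5, 74.9 and 27.4 in negative cells. No other type VI chain was tested, and the highest untested type VI signal was 75.9.

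In all, 24 collagen genes had no tested probe set. Beside those named above they were COL6A2, COL6A3, COL6A5, COL6A6, COL9A1, COL9A2, COL9A3, COL14A1, COL15A1, COL18A1, COL19A1, COL21A1, COL23A1, COL25A1, COL26A1 and COL28A1. Their signals ranged from 0.48 to 94.5. COL17A1, a further transmembrane collagen, had no probe set that met the rule for members, so nothing is said of it here. Detection calls were not used here, so a dim signal makes no statement about presence. With no filter on dim probe sets, 3 of all 112 members passed in limma, where 0.89% of all 54613 probe sets did, and 18 (16.1%) had an unadjusted p under 0.05, where 13.2% of all did.

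The promoter window of COL27A1 is shown because it is the remaining changed gene with an entry in the promoter table, with the same motifs in capitals. The window holds 3 GC boxes, the last of them after the start, and no CCAAT box.
COL27A1, plus strand, chr9:114155287-114155586: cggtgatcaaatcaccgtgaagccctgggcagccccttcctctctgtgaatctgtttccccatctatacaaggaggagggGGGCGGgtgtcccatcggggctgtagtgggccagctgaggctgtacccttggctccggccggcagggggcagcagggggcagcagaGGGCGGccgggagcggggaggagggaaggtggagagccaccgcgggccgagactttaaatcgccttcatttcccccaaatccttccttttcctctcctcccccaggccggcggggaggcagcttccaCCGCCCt
COL1A1 and COL8A1 were not in that table.

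Among genes that make, bind or degrade collagen or lie beside it, MIA2 and LAMA5 rose and MMP1 fell. Of 79 such genes in 7 lists, 50 were tested by their brightest probe set. With limma adjustment over all 27618 tested probe sets, 3 passed and 47 did not. In a separate limma fit with only the brightest probe set of each gene, 3 of the 50 passed, where 3.84% of all 11895 genes did. An unadjusted p under 0.05 was reached by 9 of the 50 in the fit of all tested probe sets. In the fit by gene 21.2% of all genes reached it. The median difference was 0.04 for these genes and 0.008 for all genes. After array median centring 2 of the pathway genes passed upward and 4 downward, and with the actin ratio in the fit 2 passed upward and 5 downward. None of the 14 tested enzymes and chaperones of collagen folding passed, and 1 had an unadjusted p under 0.05. That was P4HB, the shared subunit of prolyl 4-hydroxylase, at 12562, 12524 and 11667 in overexpression cells, against 11136, 11346 and 11225 in negative cells (difference 0.12, SE 0.06, adjusted p = 0.239). SERPINH1, the collagen chaperone HSP47, differed by 0.07 with a 95% interval of -0.12 to 0.26. These results rest on the brightest probe set, and other tested probe sets of some genes differed more. COLGALT1 was at 0.78 against -0.01 at its brightest, and CRTAP ran from -0.52 to 0.38 against -0.08. P4HB ran from -0.03 to 0.36 at its other tested probe sets.

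Of 6 tested genes for export and propeptide processing, 1 rose. This was MIA2, one of whose protein forms works with MIA3 in loading collagen into transport carriers, which read 523, 596 and 631 in overexpression cells, against 365, 349.9 and 387 in negative cells. All overexpression arrays were higher, at a difference of 0.66 (SE 0.12, limma adjusted p = 0.0184), while its other tested probe set differed by 0.21 and MIA3 by 0.08. Leaving out any 1 array other than overexpression replicate 1 or negative replicate 3 ended that call. BMP1, the procollagen C-proteinase, read 326, 374 and 276 in overexpression cells, against 236, 225 and 213 in negative cells, also separated (difference 0.52, SE 0.16, adjusted p = 0.0994), with its 2 other tested probe sets at 0.65 and 0.78. Of the lysyl oxidases that cross-link collagen, 3 were tested and none passed or had an unadjusted p under 0.05, with LOXL2 closest at 0.21 (SE 0.11, adjusted p = 0.318).

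**Figure D4:**
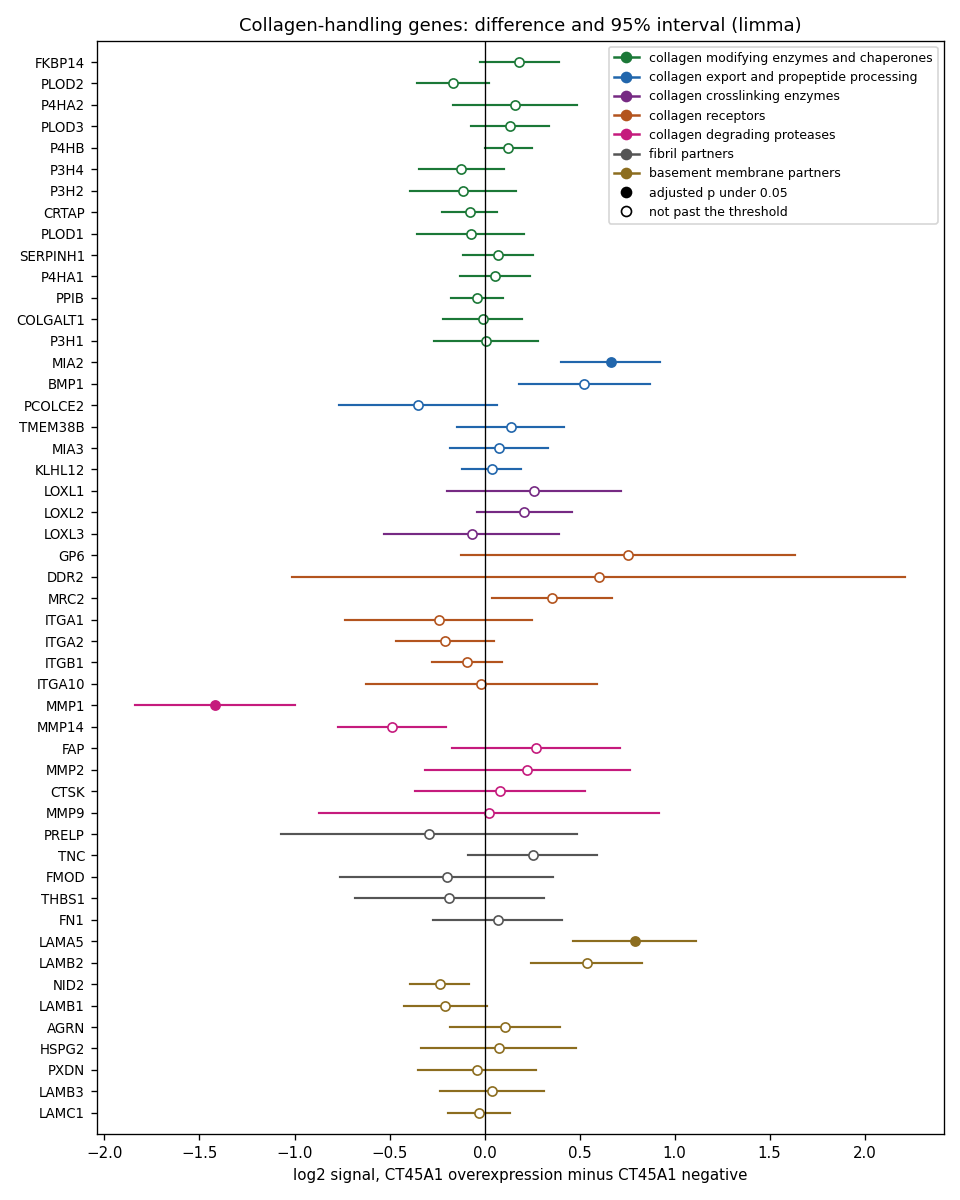
Differences in log2 signal, CT45A1 overexpression minus CT45A1 negative, with 95% limma intervals as bars, for the 50 tested genes that make, bind or degrade collagen or lie beside it, each by its brightest probe set and coloured by list. Filled points mark the 3 genes past the threshold, MIA2 (0.66), LAMA5 (0.79) and MMP1 (-1.42).

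None of 7 tested collagen receptors passed, and 1 had an unadjusted p under 0.05, MRC2, which takes up collagen fragments (difference 0.36, SE 0.14, limma adjusted p = 0.192). Of 6 tested collagen-degrading proteases only MMP1, the interstitial collagenase that cuts type I fibrils, passed. It read 432, 463 and 719 in overexpression cells, against 1448, 1155 and 1639.6 in negative cells, and fell by 1.42 (SE 0.19, adjusted p = 0.00586). MMP14, a membrane-bound collagenase, was also lower on all 3 overexpression arrays, at -0.49 (SE 0.13, adjusted p = 0.0709). The MMP1 call held when any 1 array was left out, while adjusting for the actin ratio gave -0.74 (adjusted p = 0.151).

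Partners of the fibril and the basement membrane complete the lists. None of 5 tested fibril partners passed or had an unadjusted p under 0.05, and TNC, a matrix glycoprotein, was closest at 0.25 (SE 0.15, limma adjusted p = 0.375). Other tested probe sets of FN1 ran from 0.008 to 0.73, against 0.07 at its brightest, and those of THBS1 from -0.37 to 0.49, against -0.18. Of 9 tested basement membrane partners, LAMA5, a laminin alpha chain of epithelial membranes, rose. It read 2454, 2551 and 2995 in overexpression cells, against 1291, 1413 and 1986 in negative cells, with no overlap (difference 0.79, SE 0.15, adjusted p = 0.0219). LAMB2, a laminin beta chain, differed by 0.54 (SE 0.13, adjusted p = 0.0551), and NID2, a nidogen that links laminin and type IV collagen, differed the other way by -0.24 (SE 0.07, adjusted p = 0.0988). The LAMA5 call was lost when any 1 array other than negative replicate 3 was left out, with adjusted p up to 0.0797.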

How the data were processed

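Arrays of 6 samples were used, 3 per group, with groups and replicate numbers from the sample titles. The deposited values are linear intensity values (MAS5 signals) for each probe set, and the submitters' processing notes name MAS5 and affy as the tools the authors used. Their versions and the array-level scaling are not given in the sources used here. Each array had a trimmed mean of 500.1.

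Signals were taken to log2 and 62 control probe sets left out. Probe sets above the array median on at least 3 of 6 arrays (27618) were fitted with limma 3.58.1 in R 4.3.3 (1 mean per group, eBayes with a variance trend), two-sided, with Benjamini-Hochberg adjustment over all of them. The fit was tested on simulated data. Genes were named through the platform annotation, with symbols updated by Entrez identifier. Promoter windows are RefSeq's on GRCh38.p14. The array files give no build, so no other coordinates are printed. A group mean below the mean array median was raised to it for a fold written as "at least". Precision is limited by 6 arrays, and no depth applies to arrays.

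Members and lists were chosen with earlier results of these data known. The rule for named genes took all probe sets of collagen genes with a call, the brightest tested probe set of other collagen genes, dim collagen genes by name and range, and of each other list the called genes (up to 4) or else the one with the smallest p. Further probe sets of collagen genes without a call, and LAMB2, NID2, BMP1, MMP14, MIA3 and SERPINH1, were added after their values were seen. Alternatives were other normalizations, filters, an offset of 32, variance models, the replicate number as a block, the actin ratio as a covariate, other probe set choices and leaving out each array.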

Additional observations from a re-analysis of the deposited data

How the results depend on the processing

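The number of collagen probe sets past the threshold was 5 (3 higher, 2 lower) as reported. It was 3 without a filter, 3 (1 higher) with the actin ratio as a covariate, 3 (1 higher) once _x_at and _s_at probe sets were dropped and 3 (1 higher) with 1 probe set per gene, and these last settings tested fewer members. Without the variance trend it was 0, with 0 higher and 0 lower, while 12 of 40 (30.0%) had an unadjusted limma p under 0.05, as did 18.3% of all tested probe sets. Quantile normalization, cyclic loess, no filter and a 75th percentile filter left 1 lower. Leaving out 1 array left 1 to 3, with 1 to 2 higher and 0 to 1 lower. COL1A1 1556499_s_at passed each time. Pathway genes past the threshold numbered 3 as reported, 6 (2 higher, 4 lower) after array median centring, 7 (2 higher, 5 lower) with the actin ratio, 1 without _x_at and _s_at probe sets, 0 without the variance trend and 1 to 3 without 1 array. All tested probe sets past the threshold numbered 892, against 2975 after centring, 486 without a filter, 446 without _x_at and _s_at probe sets, 4 without the variance trend and 156 to 1152 without 1 array.

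Some differences that had not passed changed sign. With the actin ratio as a covariate, COL4A1 was -0.97 and -0.78, COL4A2 -0.37 and -0.27, COL5A1 -0.92, -0.26 and -0.72, and COL7A1 204136_at -0.33. COL5A1 212489_at, at 0.01 as reported, was -0.11, -0.14 and -0.10 after quantile normalization, centring and cyclic loess, and ran between -0.22 and 0.19 when 1 array was left out, below 0 without overexpression replicate 1, negative replicate 1 or negative replicate 3. COL4A1 211980_at ran between -0.070 and 0.46, below 0 without overexpression replicate 1 or negative replicate 3. The cause of these changes was not tested, and the actin ratio does not overlap between the groups.

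With the replicate number as a block, 7 of 40 collagen probe sets passed, 5 higher, where 1189 of all (4.31%) passed, against 892 (3.23%) without the block, adding COL4A1 211981_at (adjusted p = 0.00715) and COL7A1 217312_s_at (adjusted p = 0.00499). Same-numbered arrays deviated from their group means with correlations of -0.01, -0.01 and 0.10, so the numbers were not taken to pair the arrays, and only replicate 3 correlated best with its own number. Depth does not apply to arrays, and dim probe sets limit what can be said of 72 of the 112 members.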
